A study of Mus musculus with 6 samples.

Results

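The genes described here carry out DNA replication and make the nucleotides it uses. They were taken by symbol from a list of 39 genes, 38 of which had a probe set assigned to exactly 1 gene symbol among the 18194 genes measured, while Chaf1a was not analysed here. Each gene was represented by its probe set with the highest mean over all arrays. The filter on low values asked for a level over the array's median on 1 or more of the 6 arrays, and genes that met it are called detected. All 38 measured genes met it, as did 12257 genes in all. Of the 38, Cdc6, Dtl, Mcm10, Pole and Tk1 lay above the median only on arrays of animals with aortic constriction, and the lowest of the 38, Orc1, passed on 1 array only, at percentile 50.2 of the endothelial sham array.

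The arrays hold RNA of sorted left ventricular cells. The mice were black swiss males, 8 to 10 weeks old, studied 1 week after transaortic constriction (TAC), which narrows the aorta and loads the ventricle with pressure, or after a sham operation, with 3 mice per surgery. There are 6 groups with 1 array each: Tie2cre lineage traced cardiac fibroblasts, fibroblasts without the trace and cardiac endothelial cells, each from sham operated and from TAC animals. Tie2-Cre is expressed from the promoter of Tek, an endothelial receptor gene, and leaves a permanent mark in cells in which that promoter is or was active. The labels do not give a lineage for the endothelial cells, nor do they say whether RNA of several mice was pooled or whether the populations of a surgery share mice. With 1 array per group no difference below has an error or a test, and a gene is counted when 2 arrays differ at least 2-fold, that is by 1 on the log2 scale.

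Before a cell copies its DNA, the origin recognition complex, Cdc6 and Cdt1 load the ring-shaped MCM helicase onto replication origins, a step called licensing. At the start of S phase Cdc45 and the GINS complex turn the loaded ring into an active helicase, primase and polymerase alpha lay down primers, and polymerases delta and epsilon extend them on the sliding clamp that Pcna forms. Ribonucleotide reductase, thymidylate synthase and thymidine kinase supply deoxynucleotides, and many of these genes are targets of E2F transcription factors and are low in resting cells. Most fibroblasts and endothelial cells of the adult heart are thought to divide rarely.

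Across the 6 arrays the median probe set intensity lay between 106.6 and 115.2 units, and no pair of arrays held identical values. The untraced TAC array stood apart in some control probe sets. 18S ribosomal RNA was at 12.04 on the log2 scale there and at 14.11 to 14.64 on the other arrays. The Gapdh signal at the 3′ end exceeded that at the 5′ end by 2.10, against 1.12 to 1.36 elsewhere. For Actb the same difference was -0.14 there, within the range of -0.32 to -0.11 on the other arrays. Pdgfra and Pecam1 matched the sort, with Pdgfra at 12.03 to 12.56 on the fibroblast arrays and 7.63 to 8.72 on the endothelial arrays, and Pecam1 at 6.76 to 7.98 and 13.43 to 13.55. In endothelial cells all 10 fibroblast markers were at least 2-fold higher after TAC than at sham, with Col1a1 at 8.58 and 13.01 there and at 13.58 to 14.01 on the fibroblast arrays, while Cdh5 stood at 14.11 and 13.81 there and at 6.84 to 8.10 in fibroblasts. The fibroblast markers' summed intensity was 3375 and 41593 units on the endothelial arrays and 105452 to 110635 on the fibroblast arrays. In fibroblasts the summed intensity of 10 endothelial markers was lower after TAC (4763 and 2343 in traced, 5289 and 3254 in untraced cells), and most of each sum was Tek. Tek stood at 11.76 and 10.70 in traced fibroblasts, 11.91 and 11.14 in untraced fibroblasts and 12.63 and 12.38 in endothelial cells, so unlike Pecam1 and Cdh5 it did not mark the sort clearly. The sum of 10 macrophage markers was 2055 and 1337 in traced and 1370 and 967 in untraced cells. Its members did not go 1 way, with Cx3cr1 lower after TAC (9.94 and 8.39 in traced, 9.09 and 7.16 in untraced cells) and Csf1r higher (6.85 and 8.29, 6.63 and 7.59). In endothelial cells the macrophage sum was 841 at sham and 1424 after TAC. Of 8 measured lymphocyte markers 7 or 8 were below the array median on each array, as were 4 to 6 of 7 measured erythroid markers. The sum of 10 cardiomyocyte markers was 10827 and 5054 units on the endothelial arrays and 1299 to 1832 on the fibroblast arrays, and 10 mural cell markers had median TAC differences of -0.54, -0.72 and -0.60 in traced fibroblasts, untraced fibroblasts and endothelial cells. The part of these markers in the differences below was not tested.

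By their median, the 38 replication genes stood higher after TAC in all 3 cell populations, and most of all in endothelial cells. They were chosen with earlier results of these data known. The values below thus describe the chosen genes and not replication genes at large. The median TAC minus sham difference of the 38 genes was 0.86 in traced fibroblasts, 0.98 in untraced fibroblasts and 1.83 in endothelial cells on the log2 scale, beside medians of 0.07, 0.02 and 0.18 over all detected genes. At least 2-fold higher were 17 of 38 in traced fibroblasts (6.03% of detected genes), 19 in untraced fibroblasts (4.86%), 16 in both (4.19%) and 33 in endothelial cells (10.9%). The same 16 genes passed in all 3 populations, against 2.33% of detected genes. Few detected genes were 2-fold lower (2.70% in traced fibroblasts, 2.95% in untraced fibroblasts and 1.73% in endothelial cells), and none of the 38 was. A larger share of dividing cells and more RNA of these genes per dividing cell cannot be told apart in sorted bulk samples.

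In 31 of the 38 genes all 3 TAC arrays lay above all 3 sham arrays, a pattern of 9.24% of detected genes. The exceptions were Mcm3, Pcna, Rfc3 and Dnmt1, where the endothelial sham array stood above at least 1 fibroblast TAC array, and Pola2, Pold1 and Orc1, which in fibroblasts differed little by surgery or stood lower after it. The endothelial TAC array held the highest value of 35 genes (16.5% of detected genes), and 36 genes stood above both fibroblast TAC arrays there (36.2% of detected genes).

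**Figure D1:**
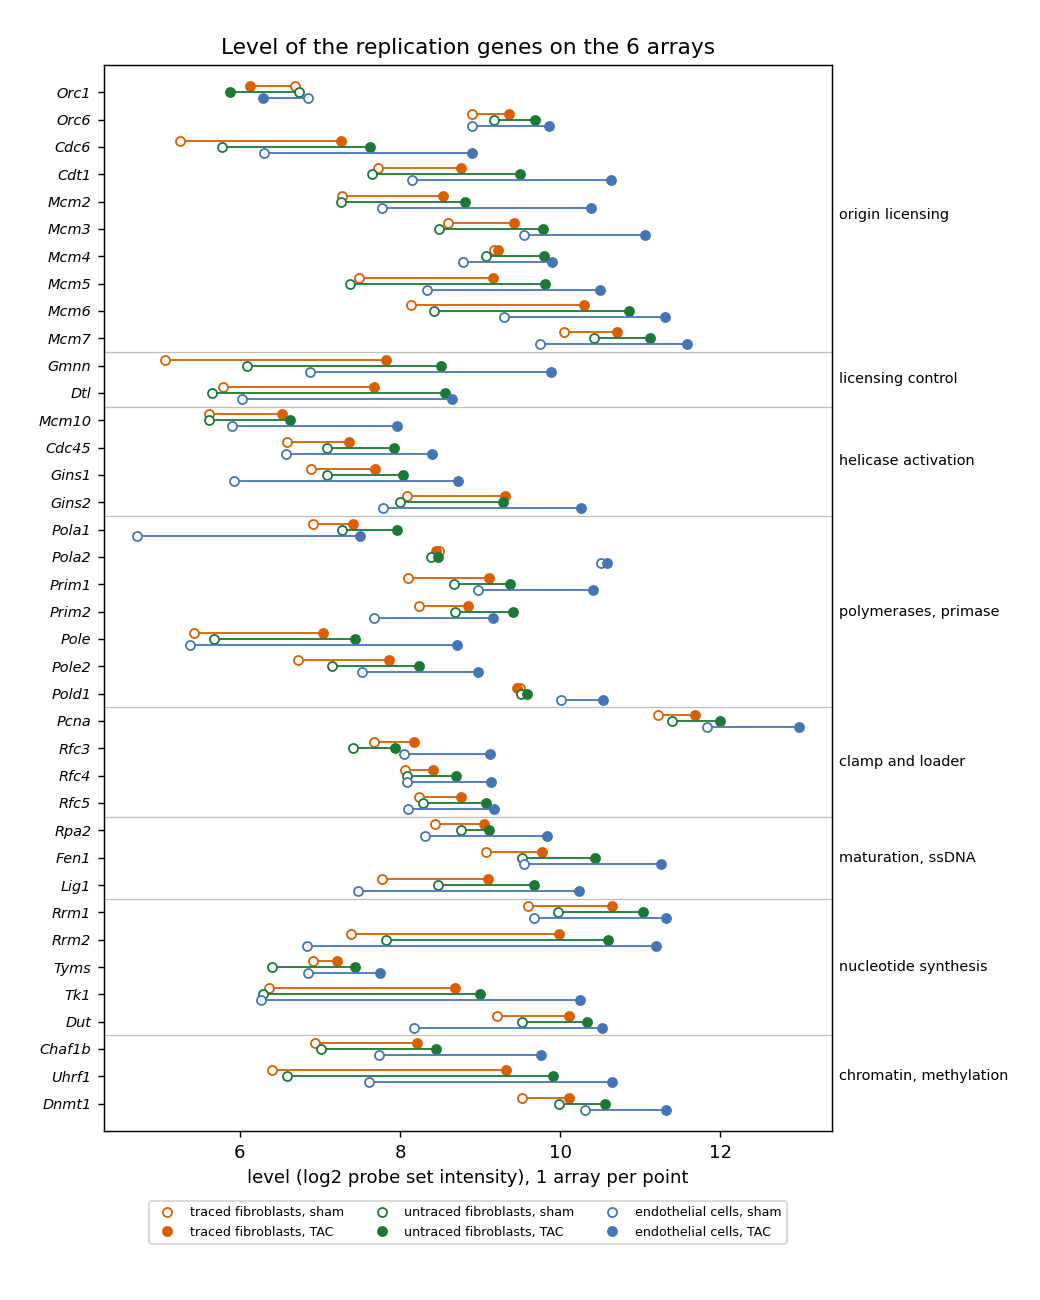
Level of each of the 38 replication genes (rows, grouped by role) on the 6 arrays, as log2 probe set intensity; open circles are sham, filled circles TAC, 1 array per point, with a line joining the arrays of a population. In 31 genes the 3 filled circles lie to the right of the 3 open ones, and in 35 the endothelial TAC array is farthest right.

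The genes with the largest differences were Rrm2, Tk1 and Uhrf1, and promoters are shown here for Rrm2 and Tk1 and for Dtl and Mcm6, the 4 genes with the largest mean difference over the 3 populations among those with 1 listed start, and for Pola2 and Orc1, the 2 with the smallest. They were chosen after their values were seen. The aim was to set the highest mean differences beside the lowest, -0.67 for Orc1 on its chosen probe set. Each is the stretch of 250 bases before a gene start in RefSeq, build GRCm38.p6, printed 5′ to 3′ on the strand of the gene, and capitals mark the E2F motif forms TTTCCCGC, TTTGGCGC, TTTCGCGC and TTTGCCGC on either strand. The stretches are Rrm2 at chr12:24708004-24708253, plus strand; Tk1 at chr11:117826015-117826264, minus strand; Dtl at chr1:191575545-191575794, minus strand; Mcm6 at chr1:128359706-128359955, minus strand; Pola2 at chr19:5964207-5964456, minus strand; and Orc1 at chr4:108579204-108579453, plus strand. For Tk1, Pola2 and Orc1 the listed start lies inside the outer bounds of the gene.
Rrm2: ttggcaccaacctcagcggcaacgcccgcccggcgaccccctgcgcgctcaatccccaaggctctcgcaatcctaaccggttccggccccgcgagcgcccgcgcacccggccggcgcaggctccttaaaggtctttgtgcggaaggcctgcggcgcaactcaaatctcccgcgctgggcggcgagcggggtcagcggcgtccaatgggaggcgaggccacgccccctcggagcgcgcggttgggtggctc
Tk1: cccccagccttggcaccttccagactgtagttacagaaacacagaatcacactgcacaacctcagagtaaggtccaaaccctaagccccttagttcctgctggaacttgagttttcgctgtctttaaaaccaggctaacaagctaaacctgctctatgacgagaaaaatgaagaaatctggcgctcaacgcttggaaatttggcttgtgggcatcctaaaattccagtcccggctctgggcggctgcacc
Dtl: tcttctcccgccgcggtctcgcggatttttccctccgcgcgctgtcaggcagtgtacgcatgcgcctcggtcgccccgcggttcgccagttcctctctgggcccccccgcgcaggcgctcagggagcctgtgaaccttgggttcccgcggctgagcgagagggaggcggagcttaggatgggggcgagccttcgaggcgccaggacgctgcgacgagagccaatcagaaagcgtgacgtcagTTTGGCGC
Mcm6: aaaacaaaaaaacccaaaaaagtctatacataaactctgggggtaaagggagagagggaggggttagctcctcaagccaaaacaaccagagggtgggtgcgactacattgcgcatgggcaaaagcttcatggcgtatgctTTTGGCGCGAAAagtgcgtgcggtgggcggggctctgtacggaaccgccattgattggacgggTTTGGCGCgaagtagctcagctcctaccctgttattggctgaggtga
Pola2: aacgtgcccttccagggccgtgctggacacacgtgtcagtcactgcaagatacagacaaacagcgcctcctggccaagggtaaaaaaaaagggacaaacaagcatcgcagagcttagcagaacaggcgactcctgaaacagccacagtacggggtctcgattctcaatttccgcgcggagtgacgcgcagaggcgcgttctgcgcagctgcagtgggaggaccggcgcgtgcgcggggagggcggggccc
Orc1: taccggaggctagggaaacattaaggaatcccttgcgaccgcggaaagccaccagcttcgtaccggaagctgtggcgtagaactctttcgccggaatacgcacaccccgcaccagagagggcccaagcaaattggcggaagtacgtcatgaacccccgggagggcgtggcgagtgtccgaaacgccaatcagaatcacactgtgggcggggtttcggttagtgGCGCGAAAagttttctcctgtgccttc

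In a window of 300 bases, the 250 before and the 50 after the start, 15 of the 33 genes of the list with a promoter entry held at least 1 of these E2F forms, against 2.60% of 27025 genes with an entry and 4.67% of 9900 detected genes. The CCAAT box, also read on both strands, was in 20 of the 33 and in 42.8% of detected genes, and the form TTTGAA of the CHR element in 4 of the 33 and in 14.1% of detected genes. Mcm6 held 3 E2F matches, of which 2 overlap, from -110 to -99 and from -47 to -40 relative to the start, and Dtl held 1 from -8 to -1. Orc1 also held 1, from -27 to -20, and Rrm2 and Tk1 held none. The chosen Orc1 probe set stood lower after TAC in all 3 populations. Its other one differed by -0.09 in traced fibroblasts, 1.03 in untraced fibroblasts and 0.95 in endothelial cells. Of the 32 genes with both a promoter and a value, the 15 with E2F letters had a median TAC difference of 1.33 over the 3 populations and the 17 without them 1.11. Matches are letters in a window, and their absence says only that these letters are not there.

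Of 10 licensing genes 5 were at least 2-fold higher after TAC in both fibroblast populations, Cdc6, Cdt1, Mcm2, Mcm5 and Mcm6. In endothelial cells 8 were. For detected genes the shares are 4.19% in both fibroblast populations and 10.9% in endothelial cells, here and for the roles and lists below. Cdc6, which with Cdt1 brings the helicase to the origin, had a level of 5.25 at sham and 7.26 after TAC in traced fibroblasts, 5.77 and 7.62 in untraced fibroblasts and 6.30 and 8.90 in endothelial cells. Cdt1 stood at 7.72 and 8.76, at 7.65 and 9.50 and at 8.15 and 10.63 in the same order. All 3 TAC arrays lay above all 3 sham arrays in both genes. The TAC difference of Cdt1 was 1.03 in traced and 1.85 in untraced fibroblasts on this probe set, and 1.67 and 1.63 on its other detected one, so the gap between the lineages was not seen on both. The 6 subunits of the helicase ring, Mcm2 to Mcm7, differed by unequal amounts. Mcm6 had levels of 8.14 and 10.29 in traced fibroblasts, 8.42 and 10.86 in untraced fibroblasts and 9.30 and 11.30 in endothelial cells, which is 4.45-fold, 5.44-fold and 4.01-fold. Mcm5 differed 3.20-fold, 5.39-fold and 4.47-fold, and Mcm2 2.39-fold, 2.94-fold and 6.11-fold. Mcm3 was 1.77-fold and 2.46-fold higher in traced and untraced fibroblasts and 2.85-fold higher in endothelial cells. Mcm7 and Mcm4 differed less in fibroblasts. Mcm7 stood 1.58-fold and 1.63-fold higher there and 3.55-fold higher in endothelial cells, and Mcm4 was 1.03-fold, 1.66-fold and 2.17-fold higher. On the chosen probe sets none of the 6 was lower after TAC in any population. The other detected Mcm4 probe set gave log2 differences of 0.56, 0.39 and 2.22. Other detected Mcm7 probe sets gave 0.89 to 1.79 in endothelial cells, against 1.83 on the chosen one.

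Of the origin recognition subunits, Orc6 stood at 8.90 and 9.36 in traced fibroblasts, 9.17 and 9.69 in untraced fibroblasts and 8.90 and 9.86 in endothelial cells, less than 2-fold higher in each. Orc1 was lower after TAC on its brighter probe set, by -0.57, -0.86 and -0.57 in traced fibroblasts, untraced fibroblasts and endothelial cells. The other Orc1 probe set gave -0.09, 1.03 and 0.95 for the same comparisons, so these data do not settle the direction for Orc1. Both regulators that keep an origin from being licensed again were among the genes with the largest differences. Gmnn, which encodes geminin, an inhibitor of Cdt1, had levels of 5.07 and 7.83 in traced fibroblasts, 6.09 and 8.51 in untraced fibroblasts and 6.87 and 9.89 in endothelial cells. Dtl, the part of a ubiquitin ligase that recognises Cdt1 for breakdown, had levels of 5.79 and 7.67, 5.65 and 8.57, and 6.02 and 8.65. For both genes the lowest TAC array stood above the highest sham array. The other detected Dtl probe set differed by -0.25 in traced fibroblasts, 0.72 in untraced fibroblasts and 1.25 in endothelial cells. On the traced sham array Gmnn was at percentile 23.6 and Cdc6 at percentile 26.1, so both folds were taken against dim readings.

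On the chosen probe sets the factors that activate the loaded helicase stood higher in all populations. At least 2-fold higher were 1 of 4 (Gins2) in both fibroblast populations and 4 of 4 in endothelial cells. The GINS subunit gene Gins2 had levels of 8.08 and 9.31 in traced fibroblasts, 8.00 and 9.29 in untraced fibroblasts and 7.78 and 10.26 in endothelial cells. Gins1 differed by 0.80 and 0.94 in the fibroblasts and by 2.80 in endothelial cells, where its sham level of 5.93 was the lowest of the 6 arrays. Mcm10, which helps to start the fork, differed by 0.90, 1.01 and 2.06. Its other detected probe sets gave 1.37, 1.08 and 1.57, and 1.43, 1.14 and 2.06, at least 2-fold in each population. Cdc45, the helicase cofactor, differed by 0.78, 0.83 and 1.83 on its chosen probe set and by 0.08, 0.07 and -0.04 on another of nearly equal brightness.

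Of 7 polymerase and primase genes 2, Pole and Pole2, were at least 2-fold higher in both fibroblast populations and 5 in endothelial cells. Pole, the catalytic subunit of the leading strand polymerase epsilon, had levels of 5.42 and 7.04 in traced fibroblasts, 5.67 and 7.44 in untraced fibroblasts and 5.38 and 8.70 in endothelial cells. That is 3.07-fold and 3.41-fold in fibroblasts and 10.0-fold in endothelial cells, all taken against dim sham readings at percentiles 28.6, 34.4 and 27.1 of their arrays. Its partner subunit Pole2 was 2.20-fold, 2.12-fold and 2.74-fold higher. Pola1, the catalytic subunit of polymerase alpha, differed by 0.50 and 0.69 in the fibroblasts and by 2.79 in endothelial cells, where its sham level of 4.71 lay at percentile 18.2 of the array. The primase subunit genes Prim1 and Prim2 differed by 1.01, 0.70 and 1.44 and by 0.61, 0.72 and 1.48. Their other detected probe sets gave 1.44, 0.93 and 1.93 for Prim1 and 0.29, 0.69 and 2.01 for Prim2. On the chosen probe sets Pold1, the catalytic subunit of the lagging strand polymerase delta, hardly differed by surgery in fibroblasts. The same held for Pola2, the regulatory subunit of polymerase alpha. Pold1 stood at 9.49 and 9.46 in traced and 9.51 and 9.58 in untraced fibroblasts and at 10.01 and 10.54 in endothelial cells. Pola2 stood at 8.49, 8.44, 8.38 and 8.47 on the fibroblast arrays and at 10.51 and 10.58 on the endothelial arrays. On this probe set Pola2 thus separated cell types and not surgeries. Its other detected probe set had the same order of cell types, with 5.78 to 6.55 on the fibroblast arrays and 8.97 and 8.48 on the endothelial arrays. That probe set also differed by surgery, by -0.76 in traced fibroblasts, -0.10 in untraced fibroblasts and -0.49 in endothelial cells.

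The sliding clamp and its loader had the lowest median differences of the 8 roles on the chosen probe sets (0.48, 0.60 and 1.07), although Pola2 and Pold1 differed less than any of these genes. Pcna had levels of 11.22 and 11.69 in traced fibroblasts, 11.40 and 11.99 in untraced fibroblasts and 11.84 and 12.98 in endothelial cells. It lay between percentiles 94.0 and 99.0 of its array throughout. The clamp loader genes Rfc3, Rfc4 and Rfc5 differed by 0.34 to 0.52 in traced fibroblasts, 0.53 to 0.79 in untraced fibroblasts and 1.05 to 1.07 in endothelial cells. On the chosen probe sets none of these 4 genes reached 2-fold in a fibroblast population, and each did in endothelial cells. Other detected probe sets gave larger values, 1.28, 0.88 and 1.45 for Rfc3 and 0.43, 1.04 and 2.62 for Rfc4. Of the genes that bind single strands and finish the lagging strand, the ligase gene Lig1 had levels of 7.77 and 9.10, 8.47 and 9.67, and 7.48 and 10.24, or 2.50-fold, 2.30-fold and 6.79-fold. The flap nuclease gene Fen1 differed by 0.71, 0.92 and 1.71, and by 1.59, 1.14 and 2.88 on its other detected probe set. Rpa2, a subunit of the protein that coats single strands, differed by 0.60, 0.36 and 1.53.

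**Figure D2:**
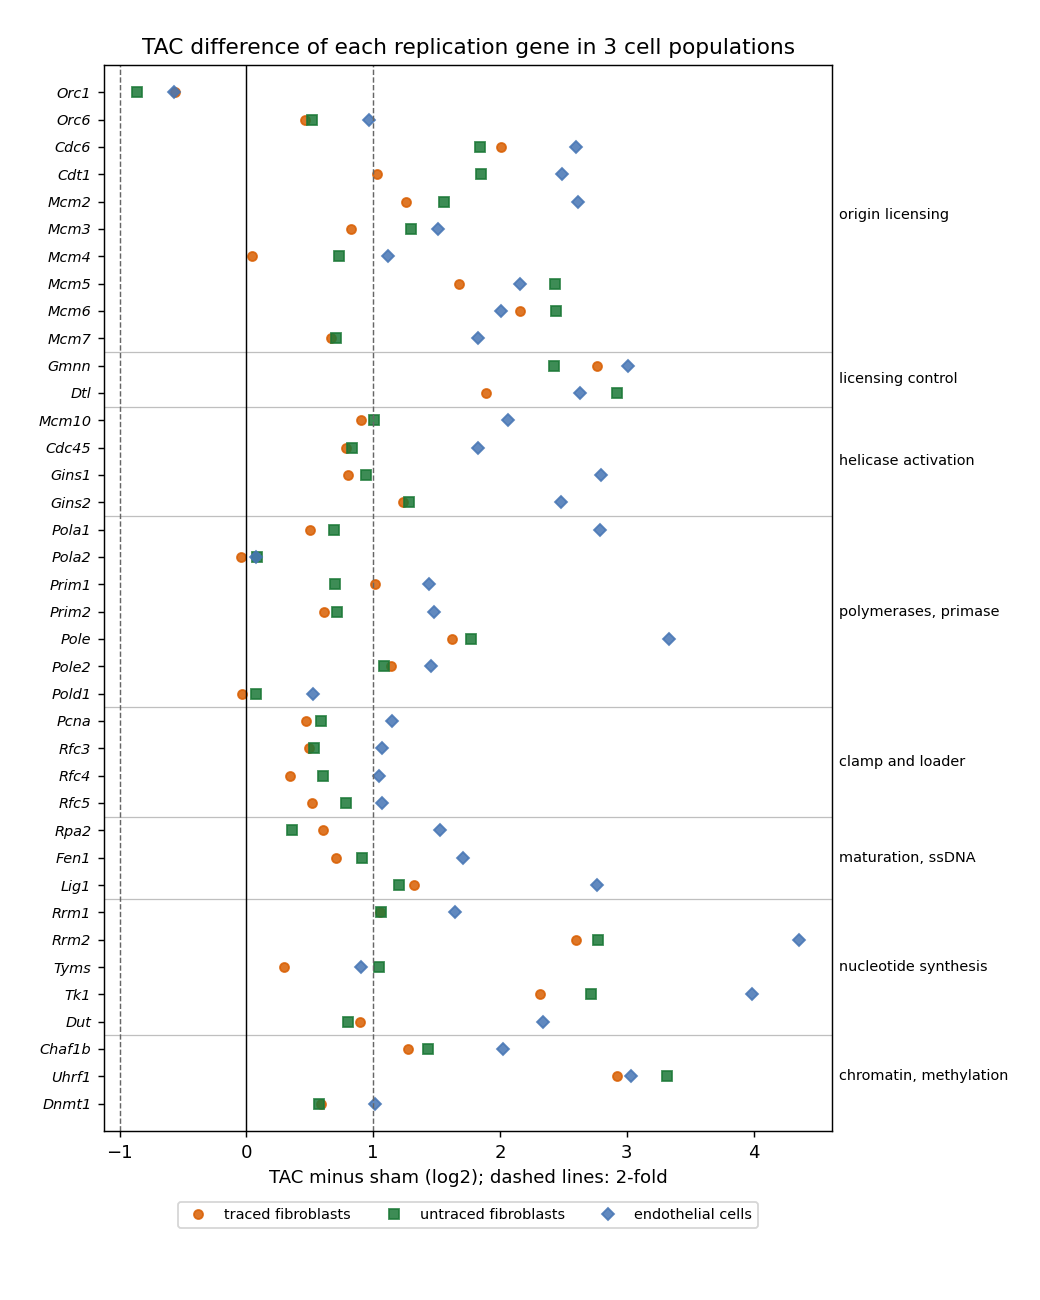
TAC minus sham difference on the log2 scale for each replication gene (rows, grouped by role) in traced fibroblasts (circles), untraced fibroblasts (squares) and endothelial cells (diamonds); dashed lines mark 2-fold. Rrm2 and Tk1 reach 4.36 and 3.98 in endothelial cells, and Pola2 lies near 0 in all 3 populations.

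Of 5 genes of nucleotide synthesis 3, Rrm1, Rrm2 and Tk1, were at least 2-fold higher in both fibroblast populations and 4 in endothelial cells. The salvage kinase gene Tk1 and the small subunit of ribonucleotide reductase, Rrm2, differed most. Rrm2 had levels of 7.38 and 9.98 in traced fibroblasts, 7.83 and 10.60 in untraced fibroblasts and 6.84 and 11.20 in endothelial cells. Its TAC level was 6.07-fold, 6.83-fold and 20.5-fold the sham level, and all 3 TAC arrays were more than 2 log2 units above all 3 sham arrays. Tk1 had levels of 6.36 and 8.68, 6.29 and 9.00, and 6.26 and 10.24, which is 4.99-fold, 6.57-fold and 15.8-fold. The 3 sham arrays were nearly alike for Tk1, all below the array median, and the endothelial TAC array stood alone at the top. Rrm1, the large subunit that pairs with Rrm2, had the smaller differences of 1.05, 1.06 and 1.64. Dut, which removes dUTP so that uracil is not built into DNA, differed by 0.90 and 0.80 in fibroblasts and by 2.34 in endothelial cells. The other detected Dut probe set gave 0.32, 0.46 and 0.53, below 2-fold in each population. Tyms, which makes thymidylate, differed by 0.30, 1.05 and 0.90 on its brightest probe set. Dimmer ones that were also detected gave 1.42, 1.62 and 1.02, and 0.50, 0.33 and 0.96.

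Of 3 measured genes that rebuild chromatin and its DNA methylation behind the fork 2 were at least 2-fold higher in both fibroblast populations and 3 in endothelial cells. Uhrf1, which finds newly copied DNA methylated on 1 strand and recruits Dnmt1, had levels of 6.40 and 9.32 in traced fibroblasts, 6.59 and 9.91 in untraced fibroblasts and 7.61 and 10.64 in endothelial cells, or 7.57-fold, 9.97-fold and 8.16-fold. These were the largest differences of the 38 genes in both fibroblast populations, and its second probe set gave 2.34, 2.34 and 2.42. The DNA methyltransferase gene Dnmt1 itself differed by 0.59, 0.57 and 1.02, and the histone chaperone gene Chaf1b by 1.27, 1.43 and 2.02.

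The order of the genes was much the same in the 3 populations. Across the 38 genes the TAC differences of traced and untraced fibroblasts, which share no array, had a Pearson correlation of 0.94 and a Spearman correlation of 0.91, beside a Pearson correlation of 0.86 across the detected genes. The mean fibroblast difference and the endothelial difference had 0.83 and 0.83, beside 0.47. Probe sets keep their sensitivity from array to array, which all these correlations share, and genes are not independent replicates. The endothelial difference exceeded the fibroblast mean at least 2-fold for 14 of the 38 genes, against 9% of detected genes. The excess was 2.19 for Pola1, 1.92 for Gins1 and 1.64 for Pole, whose endothelial sham readings were dim (percentiles 18.2, 35.6 and 27.1), so their rank is loose. For Rrm2 it was 1.67, and 1.61 and 1.81 on its other probe sets. For Dut it was 1.49 on the chosen probe set and 0.14 on the other. The endothelial difference was the smaller one for Mcm6 (-0.30) and Uhrf1 (-0.09) on the chosen probe sets and the larger one on the other detected probe set of each (0.62 and 0.08). Fibroblast markers also differ between the endothelial arrays, by a median of 3.03, and their part in these values was not tested. The endothelial TAC array stood above both fibroblast TAC arrays in 36 of the 38 genes, all but Prim2 and Pola1.

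At sham the 3 populations had no common order. The endothelial array was above both fibroblast arrays for 20 of the 38 genes and below both for 14. Among the first were Pola2, Uhrf1, Gmnn and the helicase genes Mcm2, Mcm3, Mcm5 and Mcm6, and among the second Pola1, Gins1, Dut, Prim2 and Rrm2. The genes below the array median numbered 10 on the traced sham array, 9 on the untraced sham array and 8 on the endothelial sham array. After TAC they numbered 2, 2 and 1. Shares of detected genes were not computed for the counts of this paragraph, which describe the 38 genes only.

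Most of these genes read lower in traced than in untraced fibroblasts after TAC, with no gene 2-fold apart (0 of 38, against 0.506% of detected genes). The traced array was the lower one for 35 of 38 genes after TAC, against 61.4% of detected genes, with a median of -0.37 beside -0.07. At sham it was lower for 26 of 38, against 67.2% of detected genes, with a median of -0.19 beside -0.11. The TAC difference was smaller in traced than in untraced fibroblasts for 29 of 38 genes, against 40.7% of detected genes, with medians of -0.13 and 0.06 for this gap. On the chosen probe sets it was widest for Dtl (-1.04), Cdt1 (-0.81), Mcm5 (-0.75), Tyms (-0.75) and Mcm4 (-0.68). Only that of Dtl was of like size on another detected probe set (-0.97), where Cdt1 had 0.05, Mcm5 -0.10, Mcm4 0.16 and Tyms -0.20 and 0.17. At the other end were Gmnn (0.34, on its 1 detected probe set), Prim1 (0.31, and 0.51 on another) and Orc1 (0.30, but -1.12 on another). After TAC the lineage difference was -0.89 for Dtl, -0.75 for Cdt1, -0.68 for Gmnn and -0.66 for Fen1, and it was above 0 only for Orc1 (0.25), Rfc3 (0.23) and Gins2 (0.03). All comparisons after TAC rest on the untraced TAC array. Its 18S level was lower and its Gapdh 3′ excess higher than on any other array, while its Actb difference lay within their range. The part of this array in the lineage difference was not tested.

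**Figure D3:**
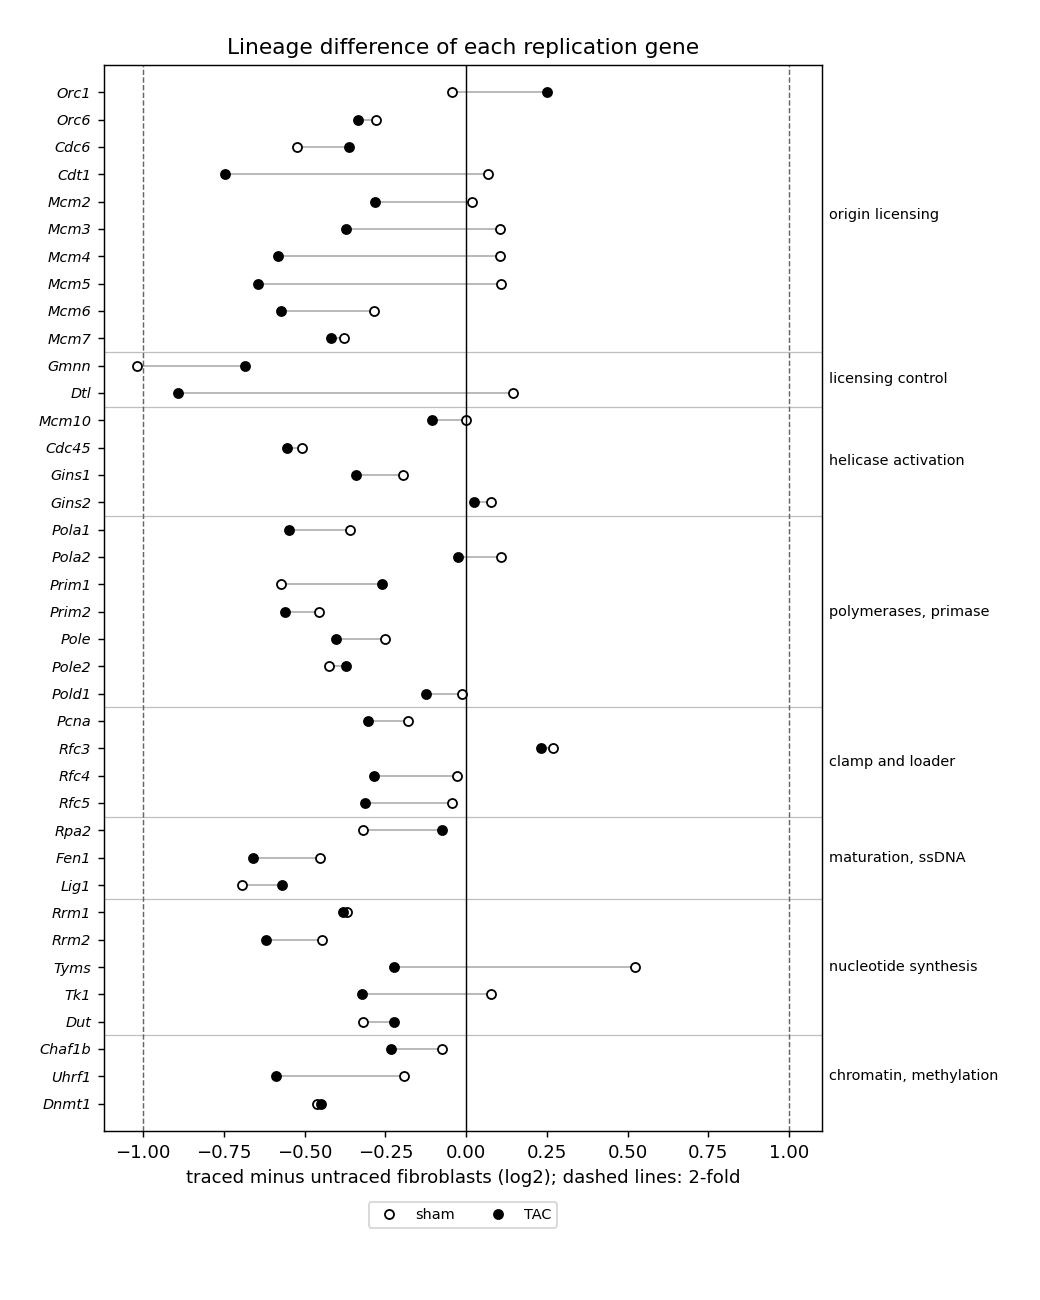
Traced minus untraced fibroblasts on the log2 scale for each replication gene (rows, grouped by role) at sham (open circles) and after TAC (filled circles), 1 array per lineage and surgery; dashed lines mark 2-fold. After TAC 35 of 38 filled circles lie left of 0, and none passes 2-fold.

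Other genes of the pathway were read from lists of textbook members. These lists hold what the 38 leave over and were drawn up with results known, so their medians are not set against those of the 38. Of 34 further replication factors 3 were at least 2-fold higher in both fibroblast populations and 13 in endothelial cells, with medians of 0.21, 0.19 and 0.83 in traced fibroblasts, untraced fibroblasts and endothelial cells. Highest in fibroblasts were the checkpoint adaptor gene Clspn (2.29 in traced and 3.37 in untraced fibroblasts), Dbf4, the activator of the origin firing kinase (2.35 and 2.53), and the histone chaperone gene Asf1b (1.26 and 2.75), and the lowest was Mcm9 (-0.46 and -0.64). Of 19 measured further enzymes of nucleotide metabolism 1 was at least 2-fold higher in both fibroblast populations, the deoxycytidine kinase gene Dck (2.30 and 1.74). That is near the share of detected genes (4.19%). In endothelial cells 6 were at least 2-fold higher (10.9% of detected genes). The CTP synthase gene Ctps differed by 1.14 and 0.88, the deaminase gene Dctd, which was below the median on all arrays, by 0.86 and 0.90, and the purine synthesis gene Atic was lowest (-0.44 and -0.48).

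Of 22 regulators of the entry into S phase 6 were at least 2-fold higher in both fibroblast populations and 12 in endothelial cells. E2f7, an E2F repressor that is itself made in S phase, stood at 4.30 and 7.06 in traced fibroblasts, 3.85 and 7.43 in untraced fibroblasts and 7.17 and 8.99 in endothelial cells. The related E2f8 differed by 2.49, 2.95 and 3.55 and the cyclin gene Ccna2 by 2.37, 3.33 and 3.94, and Rb1, the brake on E2F, was lowest (-0.38, -0.22 and -0.10). Mitotic genes were also read on the same arrays. Of 29 measured mitotic genes 28 passed 2-fold in both fibroblast populations, with medians of 2.77, 3.32 and 3.51 in traced fibroblasts, untraced fibroblasts and endothelial cells. Ect2 (4.05 and 4.02), Cep55 (3.35 and 4.50) and Bub1 (3.37 and 4.05) had the largest fibroblast differences and Cit (0.73 and 1.20) the smallest. Of the mitotic genes 18 to 20 were below the array median on each sham array and 0 on each TAC array. Shares of detected genes were not computed for these counts. A detected gene that is below the median on all sham arrays must lie above it on a TAC array, so the counts partly follow from the filter. Traced fibroblasts were the lower ones after TAC in 29 of 29 mitotic genes, against 61.4% of detected genes, with a median of -0.57.

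**Figure D4:**
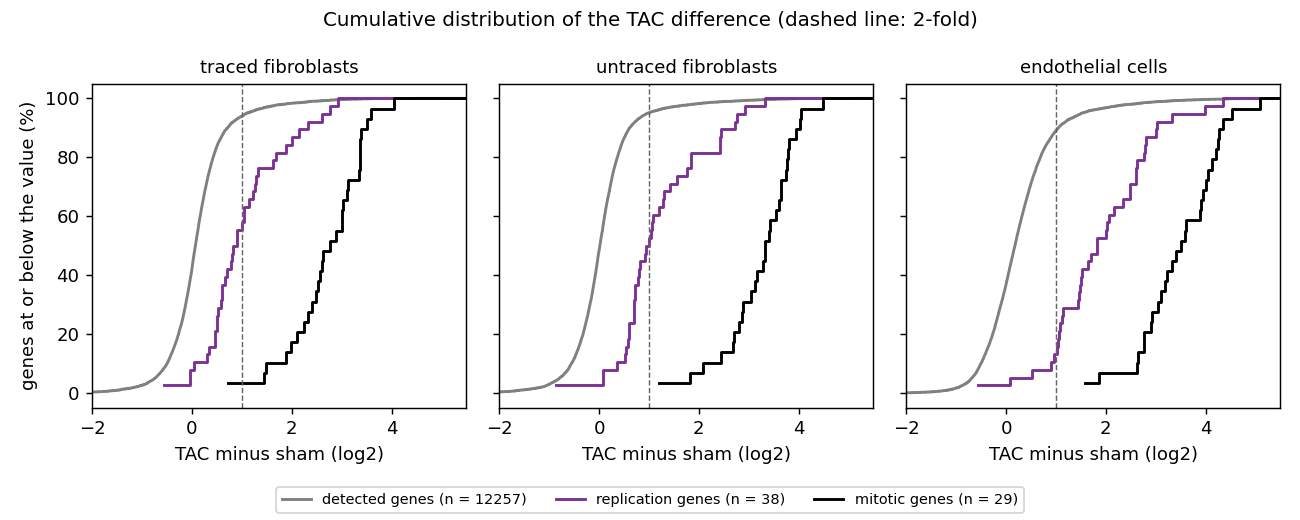
Cumulative distribution of the TAC minus sham difference (log2, horizontal axis) in traced fibroblasts, untraced fibroblasts and endothelial cells for the 12257 detected genes (grey), the 38 replication genes (purple) and 29 mitotic genes (black); the dashed line marks 2-fold. The purple curve lies right of the grey one in each panel, with medians of 0.86, 0.98 and 1.83.

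Most genes were read by several probe sets, which gives a further readout of the same RNA. The 38 genes had 88 probe sets, 73 of them detected, and 26 genes had more than 1 detected. Of the 35 other detected probe sets 32 had the sign of the chosen one in fibroblasts and 32 in endothelial cells, and the median gap to it was 0.21 and 0.49. The 15 probe sets below the array median on all arrays had a median fibroblast difference of 0.08, against 0.87 for the 73 detected. Wide gaps in the mean fibroblast difference were those of Dtl (0.24 to 2.40), Orc1 (-0.71 to 0.47) and Tyms (0.42 to 1.52), and close ones include Rrm2, whose 3 probe sets lay between 2.28 and 2.69. Over the 73 detected probe sets the traced array was the lower one after TAC in 66, beside 61.4% of detected genes. The share over all detected probe sets was not computed. These probe sets read the same 38 genes on the same arrays, so they are not separate evidence on the lineages.

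**Figure D5:**
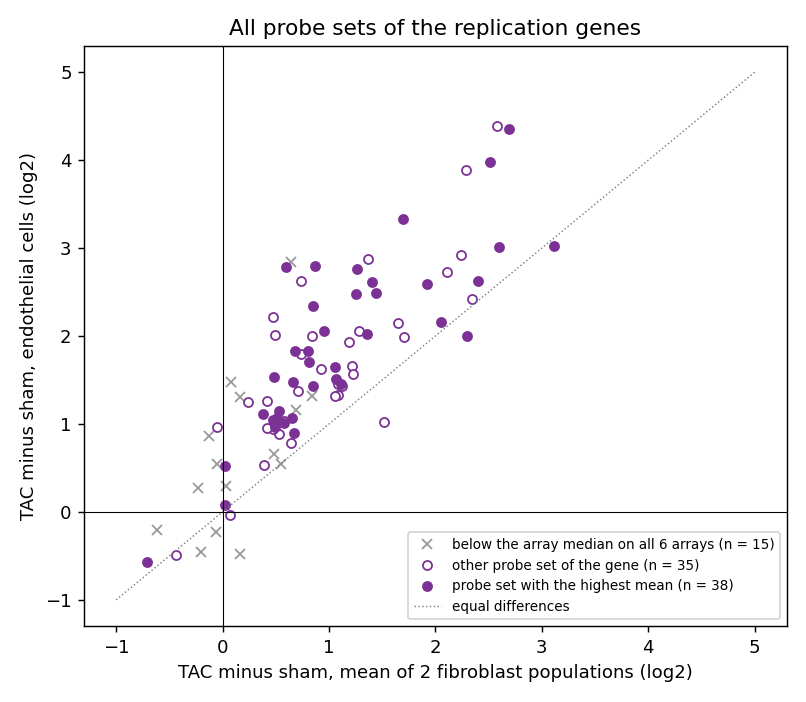
Every probe set of the 38 genes by its mean TAC minus sham difference in the 2 fibroblast populations (horizontal axis, log2) and in endothelial cells (vertical axis, log2); filled circles are the chosen probe sets, open circles other detected ones, crosses those below the array median on all 6 arrays. Most points lie above the dotted line of equal differences, and the crosses lie closer to 0.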

How the data were processed

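Expression was measured on Affymetrix mouse arrays with 200 ng of input RNA for each array, as the labels' protocols state. The authors deposited an intensity for each of 45101 probe sets on 6 arrays, and the submitters' processing notes name RMA; its version is not given in the sources used here. RMA normalizes arrays to each other and works on a log2 scale. The deposited intensity values run from 3.82 to 37205, so they are linear, and log2 was taken with no further normalization. RMA draws dim probe sets towards 0 difference and gives no detection call. The number of arrays, 1 per group, limits the precision.

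Probe sets were named from GEO's platform table, with symbols brought up to date through RefSeq gene identifiers (99.4% of identifiers found), with 34958 probe sets of exactly 1 symbol and 932 of several. Differences, counts at 2-fold and motif matches were computed in Python 3.11.15 with numpy 2.4.6, pandas 2.3.3 and scipy 1.17.1, and checked on simulated data with planted differences. No test was run. All members are described, and other lists by counts, medians and the 3 genes with the largest and the 1 with the lowest mean fibroblast difference, and of the markers Pdgfra, Col1a1, Pecam1 and Cdh5; Tek, Cx3cr1 and Csf1r were added after their values were seen. The members and lists were chosen with earlier results of these data known. Alternatives were the probe set rule, the detection filter, 32 added intensity units, 2 scalings and a threshold of 1.5-fold.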

Additional observations from a re-analysis of the deposited data

How the results depend on the processing

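No fit that pairs the sham and TAC arrays over the 3 populations was run, since each population was described on its own, with 1 array per surgery. The counts of genes at least 2-fold higher after TAC stayed within 1.5 times their value with other probe set rules, filters and scalings. The probe set rules were the mean of all probe sets and the removal of probe sets with the suffixes _s_at and _x_at. The others were the upper quartile as filter, 32 added intensity units, median centring and quantile normalization. Leaving out the filter could not change the counts, since all 38 genes had passed it. Under a threshold of 1.5-fold the counts were 27 in traced fibroblasts, 31 in untraced fibroblasts, 25 in both and 25 in all 3 populations. For detected genes the shares were 13.2%, 10.8%, 8.62% and 5.06% in the same order. At that threshold 7 genes were apart between the lineages after TAC, where 3.61% of detected genes were. The median difference in untraced fibroblasts was 1.02 without the suffixed probe sets and 1.04 with median centring, just past 2-fold. Quantile normalization turned the endothelial difference of Cdc45 to -0.21, because another probe set of that gene then had the highest mean, and moved the median of all detected genes in endothelial cells from 0.18 to 0.07. The upper quartile filter left 28 of the 38 genes and the mean of all probe sets 34. Traced fibroblasts were the lower ones after TAC in 36 of 38 genes with median centring and in 34 of 38 with quantile normalization. Over all detected genes the median traced minus untraced difference was -0.16 with median centring and -0.07 with quantile normalization. It was -0.07 with neither, so median centring shifted all genes in this direction. Shares of detected genes were not computed for these counts.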
